A study of Homo sapiens with 3 samples.

Results

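The BCL2 family genes were followed in HCC827 cells and in sublines selected for resistance to BIBW2992 (afatinib). A total of 10 members were taken by name: the survival genes BCL2, BCL2L1, BCL2L2 and MCL1, the effectors BAX, BAK1 and BOK, and the BH3-only genes BMF, BCL2L11 and BID. The array carried 24 probes for them, of 48803 in all. Of these 24 probes, 17 exceeded background on at least 1 array, and each of the 10 genes had such a probe among the 11772 genes analysed. BCL2 alone entered through the resistant arrays without a parental signal above background, so it had to appear higher there.

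HCC827 is a human lung adenocarcinoma line that depends on a mutant EGFR, and BIBW2992 inhibits EGFR and ERBB2 irreversibly. The parental cells, labelled BIBW2992 sensitive, were measured on 1 array. HCC827-BR1 and HCC827-BR2, called clone 1 and clone 2 here, were measured on 1 array each; they were set up from single clones that grew out over 3 to 4 months under drug raised to 2 µM. The labels do not state whether drug was present when RNA was taken, and no unselected clone or time-matched parental culture was labelled, so selection, cloning, time in culture and drug exposure cannot be told apart. In these whole-culture RNAs, fewer cells carrying a transcript and less of it per cell cannot be told apart either.

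Proteins of the BCL2 family decide whether the outer membrane of mitochondria is breached during apoptosis. Survival members such as BCL2, BCL-XL and MCL1 hold the effectors BAX and BAK in check, and BH3-only members such as BIM, BMF and BID relieve that hold or activate the effectors directly. In lung cells driven by mutant EGFR, loss of EGFR signalling raises BIM and BMF, and the death that follows EGFR inhibition depends in large part on BIM.

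Among the 10 members, BMF was called lower and BCL2 higher in the resistant clones by limma with Benjamini-Hochberg adjustment over all 11772 genes at a threshold of 0.05. BCL2, the founding survival gene of the family, was at least 16.1-fold higher, and BMF, a BH3-only gene, was at least 6.15-fold lower in clone 1 and 4.79-fold lower in clone 2. BOK, a BAX-like effector, was 2.37-fold above the parental level in each clone and did not pass the threshold. The other 7 members, among them MCL1, BCL2L1 and BCL2L11, were under 2-fold from the parental array in both clones. The limma calls in the whole table covered 2.7% of genes in the higher direction and 3.12% in the lower, and among the members 1 of 10 was called in each direction. The direction of the BCL2 call was fixed by its entry through the resistant arrays alone, so that call is given as a description and is no support for a rise among the members.

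The windows around the transcription start of both called members are shown because these genes passed the test. RefSeq (GRCh38.p14) gives 300 bases for each start, from 250 before it to 50 after, read 5′ to 3′ on the gene's strand. BCL2 has 1 window, on chr18:63319720-63320019 (minus strand), and BMF has a pair, on chr15:40108830-40109129 and chr15:40106917-40107216 (minus strand). Capitals mark matches to the motifs searched.
BCL2: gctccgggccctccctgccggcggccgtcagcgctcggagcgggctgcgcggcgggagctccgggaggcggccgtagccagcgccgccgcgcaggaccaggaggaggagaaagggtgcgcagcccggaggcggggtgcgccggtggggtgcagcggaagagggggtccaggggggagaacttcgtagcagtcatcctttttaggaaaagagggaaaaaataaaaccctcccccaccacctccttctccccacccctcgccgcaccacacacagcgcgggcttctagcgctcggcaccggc
BMF, first start: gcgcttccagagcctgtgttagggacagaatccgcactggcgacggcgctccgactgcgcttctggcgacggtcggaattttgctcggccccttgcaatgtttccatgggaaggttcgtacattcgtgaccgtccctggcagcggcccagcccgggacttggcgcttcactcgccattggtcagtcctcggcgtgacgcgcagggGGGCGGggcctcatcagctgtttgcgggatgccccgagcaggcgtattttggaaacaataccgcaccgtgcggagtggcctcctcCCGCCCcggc
BMF, second start: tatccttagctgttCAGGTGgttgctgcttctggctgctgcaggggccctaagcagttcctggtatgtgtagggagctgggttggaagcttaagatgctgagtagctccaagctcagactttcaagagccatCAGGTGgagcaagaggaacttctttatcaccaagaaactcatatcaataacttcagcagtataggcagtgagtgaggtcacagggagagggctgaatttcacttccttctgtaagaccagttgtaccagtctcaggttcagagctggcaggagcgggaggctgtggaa

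The motifs were searched on both strands: the cAMP response element TGACGTCA, the FOXO site GTAAACA, the STAT site TTCNNNGAA, the box CACCTG bound by ZEB and SNAI repressors, and the GC box GGGCGG. None of these letters lay in the BCL2 window, which was 70.7% G and C against a median of 58.7% over 35116 promoter windows of the same length. The first BMF window held a GC box at -45 and another, on the opposite strand, beginning at 41, counted from the start. The second BMF window held the CACCTG box on the opposite strand at -236 and at -118, a box found in 20.6% of all windows, while GC boxes were in 45% of them. Of the 8 members with a window in the table, BCL2L11 alone held the FOXO site, at -223; 3.42% of all windows hold it. A match of letters describes the window and shows no binding, and the motifs were picked with the expression values known.

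BCL2 encodes the protein that blocks release of cytochrome c. On its brightest probe the deposited signal was 59.5 on the parental array, 726 in clone 1 and 666 in clone 2. The parental signal was not above the background threshold of that array, 70.6, whereas both clones were far above theirs. After background correction and quantile normalization the log2 signals were 5.02, 9.51 and 9.35, a mean difference of 4.41 (SE 0.27; limma adjusted p = 0.00437, and 0.000935 over 18852 genes with no filter on dim probes). Since parental cells gave no signal above background, the fold is a lower bound: clone 1 was at least 17.1-fold higher, and clone 2 at least 15.2-fold. The clones lay 0.17 log2 units apart, far less than their distance from parental cells.

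A second BCL2 probe, annotated like the first to the transcript NM_000633 (the alpha form), read 56.6 on the parental array, 231 in clone 1 and 236 in clone 2. It was at least 4.99-fold higher in the clones (adjusted p = 0.00823 in a limma fit over 15586 probes). Like the first probe, it entered through the resistant arrays alone, so its direction was fixed and its p-value is a description. Both probes placed the clones above background and the parental cells below it. The remaining BCL2 probes, annotated to NM_000657 (the beta form), stayed between 48.7 and 62.0 and exceeded background on no array. Their silence is a limit of detection and gives no level for that transcript.

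**Figure D1:**
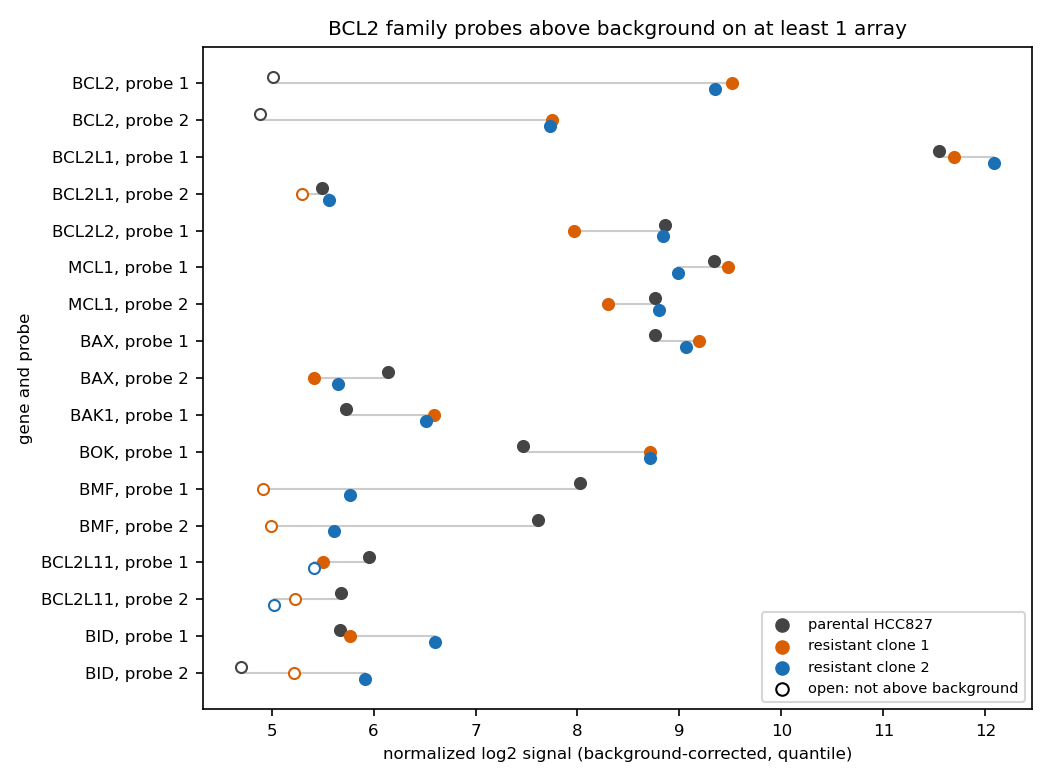
Normalized log2 signal (x axis) of the 17 member probes above background on at least 1 array (y axis), with 1 point per array: parental cells in grey, clone 1 in orange, clone 2 in blue, and open circles where the probe was not above background. BCL2 has an open parental point at 5.02 and filled points at 9.51 and 9.35 on probe 1, and BMF has its parental point highest on both of its probes.

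The other survival genes had means under 2-fold from the parental level. BCL2L1, which encodes BCL-XL, gave signals of 3227, 3175 and 4342 in parental cells, clone 1 and clone 2. Its normalized log2 differences were 0.15 in clone 1 and 0.54 in clone 2 (mean 0.34, SE 0.30, limma adjusted p = 0.584). A dimmer BCL2L1 probe read 73.2, 63.2 and 74.4, near background throughout and below it in clone 1. Its mean difference was -0.06, and averaging the probes gave 0.14 for the gene. BCL2L2, which encodes BCL-W, read 516, 266 and 481, so that clone 1 was 1.85-fold below parental cells and clone 2 was close to them. The clones were 0.87 log2 units apart for BCL2L2, and its mean difference of -0.46 was no larger than that (SE 0.42, adjusted p = 0.609).

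MCL1 encodes a short-lived survival protein. Its brighter probe read 711, 709 and 527 in parental cells, clone 1 and clone 2, and its other probe 481, 329 and 468. In normalized log2 terms the first probe differed by 0.14 in clone 1 and -0.35 in clone 2, and the second by -0.46 and 0.0375. The probes therefore put a different clone lowest, and the MCL1 mean difference was -0.10 (SE 0.32, limma adjusted p = 0.896). MCL1 thus showed no change larger than the spread between the clones or between its probes.

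Among the effectors, BOK, which can permeabilize mitochondria without the help of BAX and BAK, read 213 on the parental array against 429 and 439 in the clones. Its single probe was above background on all 3 arrays, and both clones were above the parental array. The log2 differences were 1.24 in each clone, and clone 2 minus clone 1 was -0.00233 (mean 1.24, SE 0.26). The limma adjusted p was 0.0662, and 0.0456 when dim probes were kept in the table. BAK1, which encodes the effector BAK of the mitochondrial membrane, read 82.1, 118 and 117, only a little above background throughout. It was 1.77-fold above parental cells on average without passing the threshold (log2 0.82, SE 0.26, adjusted p = 0.168).

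BAX, the effector that moves from cytosol to mitochondria, gave unlike answers on its probes. The brightest, annotated to NM_138764, read 482, 590 and 554, a mean log2 difference of 0.37 (SE 0.26, limma adjusted p = 0.501). A dimmer probe annotated to NM_004324 read 101, 66.5 and 77.2, a mean difference of -0.61 (adjusted p = 0.298 in the probe fit), in the opposite direction. When the probes were averaged the BAX difference turned to -0.12 (adjusted p = 0.836). The last BAX probe exceeded background on no array. No direction can be given for BAX as a gene.

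BMF, a BH3-only protein held at the cytoskeleton by a dynein light chain until it is freed, fell in both clones. The deposited signal was 302 on the parental array, 54.2 in clone 1 and 81.2 in clone 2. Clone 1 was below background and clone 2 just above its threshold of 71.4. The normalized log2 signals were 8.03, 4.91 and 5.77, a mean difference of -2.69 (SE 0.42, limma adjusted p = 0.0315). Both clones lay below the parental array, by more than the 0.85 log2 units that separated them from each other.

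A second BMF probe read 234 on the parental array, 55.8 in clone 1 and 75.8 in clone 2. It was at least 4.62-fold lower in clone 1 and lower by a log2 difference of -2.01 in clone 2 (mean -2.32, adjusted p = 0.0287 in the probe fit). Both probes thus gave the same order of arrays, with parental cells highest and clone 1 lowest. The remaining pair of BMF probes exceeded background on no array.

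BCL2L11 encodes BIM, the BH3-only protein most tied to death after EGFR inhibition. Its brightest probe read 91.5 on the parental array, 68.9 in clone 1 and 70.2 in clone 2, near background throughout and below the threshold in clone 2. The mean log2 difference was -0.49 (SE 0.26, limma adjusted p = 0.363). A second BCL2L11 probe read 80.1, 61.3 and 60.4, with parental cells alone above background (mean -0.56, adjusted p = 0.328 in the probe fit). That probe entered through the parental array alone, so its direction was fixed and its difference is set by the floor. The last BCL2L11 probe exceeded background nowhere. At such low signal a modest change in BCL2L11 was not measurable on these arrays.

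BID, which caspase-8 cuts to link death receptors to mitochondria, was highest in clone 2 on the brighter of its 2 detected probes. The brighter read 79.6 on the parental array, 77.6 in clone 1 and 122 in clone 2, and the dimmer 52.9, 61.1 and 86.7. The dimmer entered through clone 2 alone, so it had to be highest there. The last BID probe exceeded background on no array (53.1, 49.4 and 45.0). On the brighter probe clone 2 was 1.91-fold above parental cells and clone 1 was at 1.07-fold. The mean difference was 0.51 (SE 0.41, limma adjusted p = 0.549), and the clones were 0.84 log2 units apart.

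**Figure D2:**
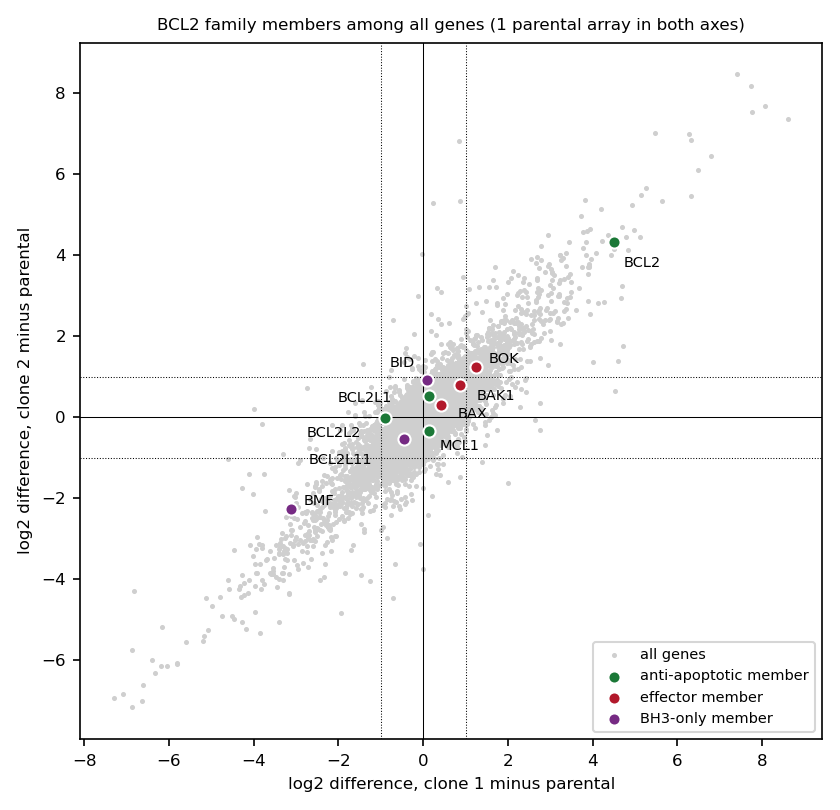
Log2 difference from the parental array in clone 1 (x axis) and clone 2 (y axis) for all 11772 genes in grey and the 10 members in colour by role, with dotted lines at a 2-fold difference. Both axes subtract the same parental array, so points are drawn toward the diagonal by that shared value; BCL2 lies at 4.50 and 4.33, BMF at -3.12 and -2.26, and BOK at 1.24 on both axes.

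By size alone, BCL2 and BOK exceeded the parental array 2-fold or more in each clone, and BMF was below it by that much. Over all genes 4.73% passed this rule upward and 5.33% downward. None of the 10 members was 2-fold apart between the clones, a size reached by 3.81% of all genes. BCL2L2, BMF and BID lay farthest apart, by 0.87, 0.85 and 0.84 log2 units, in each case with clone 2 the higher. The median of the 10 mean differences was 0.35 against 0.0145 over all genes, and it was 0.00966 when the probes of each gene were averaged. By role, the median was 0.12 for the 4 survival genes, 0.82 for the 3 effectors and -0.49 for the 3 BH3-only genes. Each median of 3 is the value of a single gene, BAK1 and BCL2L11 in turn, which were near background and not called. These medians therefore give no direction for a role.

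The genes nearest to BCL2 in the pair of clone differences, by Euclidean distance, were EPDR1, an ependymin-related lysosomal protein, CACNA2D3, a calcium channel subunit, and LPAR1, a lysophosphatidic acid receptor. BCL2, CACNA2D3 and LPAR1 were below background in parental cells, so their differences are set by the floor of the array and their order of likeness is not measurable. CACNA2D3 read 49.7, 522 and 424 in parental cells, clone 1 and clone 2, and LPAR1 read 65.0, 767 and 858. EPDR1 was measured on all 3 arrays, at 249, 4260 and 4151. Likeness over 3 arrays is a description only.

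Genes next to the 3 members that were 2-fold off in both clones were read in RefSeq order, with 3 analysed genes on each side. Around BCL2 the mean differences ran from -1.48 to 0.58. The adjacent PHLPP1, a phosphatase of AKT, differed by 0.0651, and KDSR, of sphingolipid synthesis, by 0.58. SERPINB5, farthest of those read after BCL2 and the lower end of that range, encodes maspin and was lower (limma adjusted p = 0.0422). It entered through the parental array alone, with both clones below background, so its direction was fixed and its difference is set by the floor. Beside BMF the range was -1.70 to 0.42. The lower end was PLCB2, a phospholipase C, which was below background in both clones. The upper end was GPR176, which was below background in parental cells. Both ends of this range are set by the floor, and their directions were fixed by entry. SRP14, a subunit of the signal recognition particle, differed by 0.0807, and PAK6, a p21-activated kinase, fell (log2 -1.60, adjusted p = 0.0366). All 6 neighbours of BOK lay between -0.49 and 0.12, and limma called 0 of them, also 0 at an unadjusted p under 0.05. Of the 6 beside BCL2 these counts were 1 and 1, and of the 6 beside BMF 1 and 2. Over all genes limma called 2.7% higher and 3.12% lower, and 20.7% had an unadjusted p under 0.05. Counts out of 6 are too small to set against these shares. BOK, measured on all 3 arrays, lay above the range of its 6 neighbours. For BMF, below background in clone 1, a difference from PLCB2 could not be measured.

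**Figure D3:**
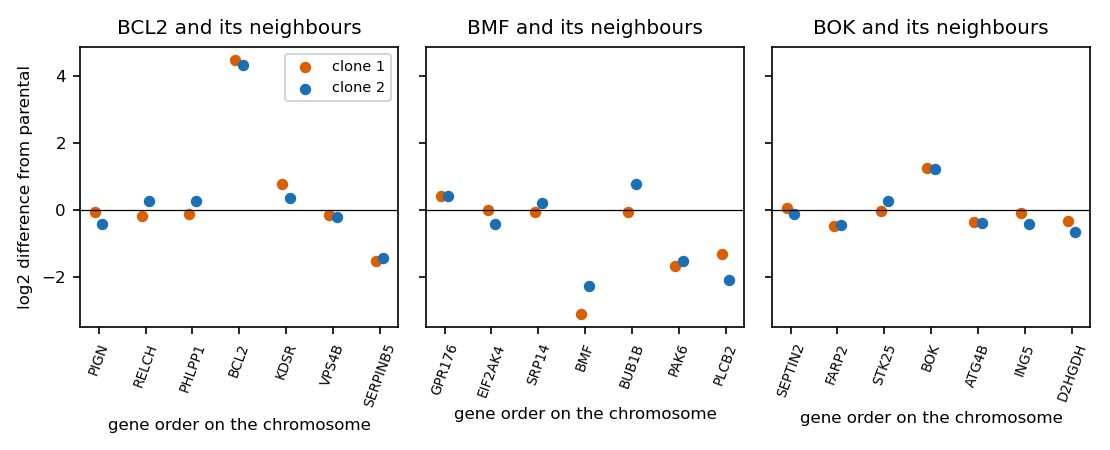
Log2 difference from the parental array (y axis) of BCL2, BMF, BOK and the 3 analysed genes on each side in chromosome order (x axis), clone 1 in orange and clone 2 in blue. BOK stands above its neighbours; SERPINB5 beside BCL2 and PAK6 and PLCB2 beside BMF are well below 0 in both clones, SERPINB5 and PLCB2 with clone signals below background.

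The rest of the mitochondrial death pathway was read from lists of 51 further genes, of which 47 were named on the array and 40 exceeded background somewhere. Of these 40, limma called 0 higher and 1 lower, against 3 higher and 2 lower at an unadjusted p under 0.05. Over all genes 10.1% were higher and 10.6% lower at that unadjusted level, 20.7% in all, so the 5 of 40 lay under the share of the whole table, and the unadjusted counts of the single lists given next rest on at most 2 genes each. The called gene was BCL2L15, a BCL2-like gene: its brighter probe read 298 on the parental array, 93.6 in clone 1 and 71.3 in clone 2. BCL2L15 fell by 2.21 on the log2 scale (SE 0.37, limma adjusted p = 0.0382). Clone 2 was just below background on this probe, so its part of that mean is set by the floor. The fold was 3.63 in clone 1 and at least 5.83 in clone 2. Its other probe read 148, 58.2 and 58.9, with both clones below background. That probe entered through the parental array alone, so its direction was fixed. The median over the 40 genes was 0.0169 in clone 1 and -0.17 in clone 2, against 0.0125 and 0.0104 over all genes.

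Further BH3-only and BCL2-like genes numbered 12 detected of 14. BIK, a BH3-only protein of the endoplasmic reticulum, was the gene of these lists that differed 2-fold between clones: 296 on the parental array, 298 in clone 1 and 135 in clone 2. BIK in clone 2 was 2.32-fold below parental cells, and the mean was not called (adjusted p = 0.672). BNIP3, a mitophagy receptor and the brightest of this list under 2-fold, had log2 differences of 0.72 and 0.47 (adjusted p = 0.311). The median over the 12 was -0.15. The survival genes BCL2A1 and BCL2L10 and the BH3-only genes HRK and BBC3 (PUMA) were below background on every array.

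Channel proteins of the outer membrane and proteins released from mitochondria showed 0 limma calls among 8 detected of 9, and 0 at an unadjusted p under 0.05. VDAC1, the main channel of the outer membrane, differed by 0.15 in clone 1 and 0.10 in clone 2, and the list median was -0.0186. Among the apoptosome and executioner caspases 4 of 6 listed genes were named on the array and detected, and 0 were called by limma, with a median of -0.34. At an unadjusted p under 0.05 there was 1, CASP6, an executioner caspase named here after its value was seen (log2 -0.92 for clone 1 and -1.08 for clone 2, adjusted p = 0.118). CASP2, the brightest under 2-fold, differed by -0.36 in clone 1 and -0.47 in clone 2 (adjusted p = 0.445).

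Of 7 inhibitor of apoptosis genes listed, 6 were named on the array and 4 were detected, while XIAP and BIRC7 were below background on every array. Among the 4 detected, 0 were called by limma, against 1, BIRC5, at an unadjusted p under 0.05. BIRC5 encodes survivin, which also serves in mitosis; it read 197 on the parental array, 361 in clone 1 and 622 in clone 2, and was above parental cells by log2 differences of 1.11 and 1.91 without a call (adjusted p = 0.120). The second BIRC5 probe differed by 0.74. BIRC2, which encodes the ubiquitin ligase cIAP1, had a mean difference of 0.70 (adjusted p = 0.265). The median of these 4 was 0.38, and it turned to -0.0428 with dim probes kept.

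Genes of turnover, tethering and transcription of the family had 12 members detected of 13 listed and 0 called by limma, with a median of -0.0986. At an unadjusted p under 0.05 there were 2, STAT5A and FOXO1; the latter, a forkhead factor named after its value was seen, differed by 0.85 (adjusted p = 0.157). STAT5A, a transcription factor of cytokine signalling, read 113, 196 and 258 and was 2.17-fold and 2.89-fold above parental cells in clone 1 and clone 2 (adjusted p = 0.0859). DYNLL1, a dynein light chain of the type that tethers BIM, differed by 0.51 and 0.58 (adjusted p = 0.320). The other light chain of the list, DYNLL2, named after its value was seen, went the opposite way. It differed by -0.88 in clone 1 and -0.54 in clone 2 (limma adjusted p = 0.259), so no direction can be given for the light chains.

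**Figure D4:**
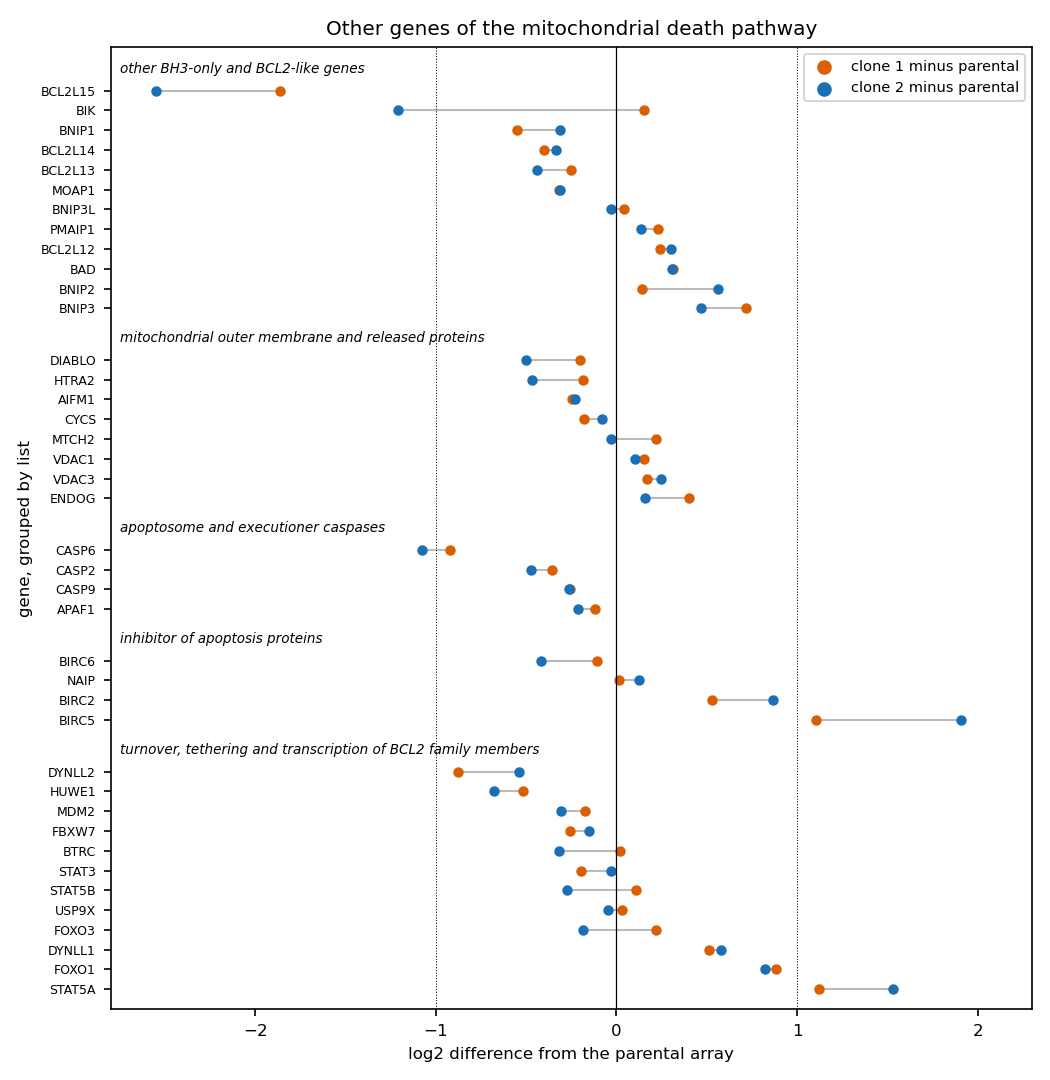
Log2 difference from the parental array (x axis) of the 40 detected genes of the other lists (y axis, grouped by list), clone 1 in orange and clone 2 in blue, with dotted lines at a 2-fold difference. BCL2L15 lies below -1 in both clones, BIRC5 and STAT5A above 1 in both, and most genes lie between the dotted lines.

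Across the arrays 33.3% to 34.4% of probes exceeded background. EGFR, the drug's target, was 1.65-fold below parental cells in clone 1 and 21.9-fold below in clone 2. Of 5 epithelial markers 4 exceeded background on each array, and CDH1 had a mean log2 difference of -4.60 and EPCAM of -4.23 (adjusted p = 0.0213 and 0.0354). NKX2-1 of lung adenocarcinoma was above background in parental cells alone. None of 5 fibroblast markers exceeded background. Of 4 leukocyte markers CD14 alone did, and of 4 endothelial markers PECAM1 alone, on every array. CD14 was lower in the clones (186, 70.8 and 82.3; log2 -1.56, adjusted p = 0.0423) and PECAM1 was not called (adjusted p = 0.497), while PTPRC, CD3E, VWF and CDH5 were below background throughout. The other CD14 probe was below background on every array (64.2, 48.6 and 56.9), so the CD14 call rests on a single probe that was close to background in both clones. The part of the epithelial change in the member values was not tested.

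The p-values rest on the spread between the 2 clones, which leaves 1 residual degree of freedom beside 4.08 drawn from all genes, and assume that parental cells vary likewise. Nothing in the labels says that the clones arose independently, so a p-value measures only the distance of 1 parental array from this pair.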

How the data were processed

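Biotin-labelled RNA of 1 parental and 2 resistant cultures was hybridised to Illumina HumanHT-12 v3 BeadChips, 1 colour per array, per the labels' protocols. The authors deposited a non-normalized table of linear intensity for 48803 probes, with no detection p-value or control probe and minima of 35.9 to 38.4, so not background-subtracted. A second deposited table holds the authors' processed intensity, linear, uncentred and in the direction of the arrays (column medians 59.6, 59.7 and 59.7; r of at least 0.99995 with the first on the log2 scale). The software behind either table was not given in the sources used.

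Without control probes, normexp background correction (limma 3.58.1 in R 4.3.3, offset 16) came first; log2 and quantile normalization followed. A probe exceeded background at a one-sided p under 0.01 from the mode and lower spread of the dimmest 75% of probes on its array, which gave thresholds of 70.6, 66.3 and 71.4. Probes were named from the platform annotation, with 28059 symbols updated through RefSeq; 28098 had 1 gene, 13 several and 20692 were not listed. A gene entered if a probe exceeded background on at least 1 array and was represented by its brightest probe (11772 genes). Where every array of the dim side was below background, the fold is given as at least N-fold against the lowest normalized signal above background there.

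The 2 resistant arrays were set against the parental array by lmFit and eBayes with Benjamini-Hochberg adjustment over all genes, and the procedure was tested on simulated data. The members, lists and tests were chosen with earlier results of these data known. All members were named; of the lists, genes called, 2-fold off in both clones or 2-fold apart between clones, and the brightest under 2-fold. The number of arrays limits the precision. Alternatives covered background correction, scaling, the authors' processed values, the filter, the threshold, the choice of probe and each clone left out. Figures used matplotlib 3.10.9.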

Additional observations from a re-analysis of the deposited data

How the results depend on the processing

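BCL2 stayed above and BMF below parental cells in all 7 alternatives with a test that kept them, BCL2 at log2 differences of 3.45 to 4.41 (limma adjusted p 0.000935 to 0.00808) and BMF at -2.76 to -1.97 (0.0158 to 0.0351). Except with no filter on dim probes, the direction of BCL2 was fixed by its entry through the resistant arrays alone, so its range is a description. With only probes above background on all 3 arrays, both left the table with BCL2L11: 0 members were then called higher and 0 lower, 1 (BOK) was 2-fold higher in both clones and 0 lower, and 277 genes were called in all, against 685; the 1 lower call of the other BH3-only list was lost and its median turned to 0.0952. With no filter on dim probes 2 members were called higher, as BOK (1.24) passed at an adjusted p of 0.0456 (0.0456 to 0.0767 over 8 alternatives), and the medians of the other BH3-only genes and the inhibitors of apoptosis moved to 0.0657 and -0.0428. With a background p under 0.05 these were 0.0316 and 0.0703. Averaging probes turned BAX to -0.12 and moved the members' median to 0.00966 and the caspases' to -0.21; median scaling moved the caspases' to -0.44. No other call among the members changed.

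Leaving out a clone gives values without a test. The members' median was 0.14 to 0.42, that of the other BH3-only genes -0.17 to 0.0917 and that of the turnover list -0.17 to 0.0251. BCL2 ran from 4.33 to 4.50 and BMF from -3.12 to -2.26. No paired analysis was possible because the parental cells were measured on 1 array without a number that pairs it with a clone. Probes near background, such as those of BCL2L11 and BID, limit what could be seen.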
